A study of Mus musculus with 12 samples.

Results

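The regions described here carried H3K4me3 peaks in adult mouse small-intestinal epithelium and in no embryonic library. Peaks of the 8 deposited lists were merged where they overlapped or touched, and an autosomal region was taken when at least 3 of the 4 adult lists and none of the 4 embryonic lists held a peak in it. That gave 445 adult-only regions of 23602 merged autosomal regions (1.89%) and of 12038 autosomal regions with a peak in at least 3 adult lists (3.70%). The regions were chosen by presence or absence of peaks in these same libraries, so the adult to embryonic difference is a description and was not tested.

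The study followed the mark from the embryonic epithelium to adult stem cells and enterocytes, with 2 libraries per group. All mice were of a mixed C57BL/6 and CD1 strain. The embryonic groups, E12.5 and E14.5, were cells sorted as EpCAM+ and negative for CD31 and CD45. Both adult groups came from Lgr5EGFP-Cre-ERT males at postnatal day 60, so stem cells (ISC) and enterocytes carried the same allele. ISC were sorted for high Lgr5-EGFP, while the enterocyte gate in the labels used EpCAM, CD31 and CD45 and no enterocyte marker, so that other EpCAM+ cells of the preparation are not removed by it. The sex of the embryos is not given, and sex chromosomes were left out: 6 further regions there met the same calls.

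H3K4me3, trimethylation of lysine 4 of histone H3, sits around the transcription start sites of active and poised genes. Its breadth differs between genes, and broad stretches are typical of genes that define a cell's identity. The mature intestinal epithelium faces food and microbes, absorbs lipids and sterols and exports antibodies, and many genes for these tasks are low in the early embryonic gut.

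Sequenced depth ranged from 12821255 to 43259380 tags and list length from 11111 to 17658 peaks. In both adult groups replicate 1 was the shallower library: 13355462 against 25547814 tags in ISC and 12821255 against 22137910 in enterocytes. The 2 libraries of a group shared 1 input, so group and input cannot be told apart. The lists hold no signal outside peaks; a missing peak means that the caller reported none at that depth. In sorted populations, a mark in fewer cells and a weaker mark in every cell cannot be told apart. As a check of the labels, the region at chr14:80399966-80407772 on mm9, where the stem-cell gene Olfm4 lies by its known position, was covered over 6075 and 7807 bp in the ISC libraries and had no peak in the other 6.

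The 3 genes given as markers of these regions lie at 3 of the 6 widest of them, and all 3 regions had a peak in every adult library. Pigr encodes the receptor that carries polymeric immunoglobulins across the epithelium. Ceacam1 encodes an adhesion molecule of the epithelial surface. Abcg5 encodes a half-transporter that, paired with Abcg8, returns sterols to the gut lumen. Gene names rest on the known mm9 positions of these genes and not on an annotation of that build.

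The sequences just before the start sites of these genes are shown because the mark is read around them. They come from RefSeq on GRCm38.p6, a later build whose coordinates are not comparable with those of the peaks. The bases shown are the 250 before the annotated start for Pigr (chr1:130826434-130826683, plus strand) and Ceacam1 (chr7:25477626-25477875, minus strand). For Abcg5 they are the 109 bases between its start and that of Abcg8, which is transcribed the other way (chr17:84683012-84683120, minus strand). Capitals mark CACGTG (the E-box read by bHLH factors such as USF), AGATAA (read by GATA factors) and the TATA box letters TATAAA. The search covered both strands and included 2 further motifs without a match here: TTTATG, present in 10.8% of all promoter windows, and the letters CAAAGT, present in 12.6%. No matches overlapped.
Pigr: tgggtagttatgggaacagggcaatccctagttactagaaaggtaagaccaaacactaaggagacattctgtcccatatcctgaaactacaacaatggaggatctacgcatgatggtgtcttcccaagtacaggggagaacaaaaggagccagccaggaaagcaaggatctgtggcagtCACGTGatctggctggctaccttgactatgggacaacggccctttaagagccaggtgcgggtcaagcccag
Ceacam1: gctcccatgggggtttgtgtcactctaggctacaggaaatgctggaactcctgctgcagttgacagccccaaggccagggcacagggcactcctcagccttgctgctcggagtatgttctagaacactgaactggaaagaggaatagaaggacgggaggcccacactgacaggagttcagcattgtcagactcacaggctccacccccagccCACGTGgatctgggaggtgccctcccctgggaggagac
Abcg5: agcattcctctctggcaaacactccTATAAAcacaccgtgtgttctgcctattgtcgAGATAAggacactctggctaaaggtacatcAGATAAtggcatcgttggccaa

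CACGTG began 71 bases before the start of Pigr and 38 bases before that of Ceacam1; it occurs in 6.02% of the 32851 mouse promoter windows of 250 bases in the same table. The interval between Abcg5 and Abcg8 held AGATAA 52 and 22 bases before the start of Abcg5, a motif found in 9.99% of the windows, and TATAAA 84 bases before it (12.4% of windows). The 250 bases before the start held 4 CpG for Pigr, 3 for Ceacam1 and 3 for Abcg5. The window of Npc1l1, a gene described below, held 6, the median of all windows, and no match to any of the 5 motifs. Of all windows, 44.4% held 4 or fewer and 37.8% held 3 or fewer. These are matches of letters chosen with the sequences in view, and no binding was measured.

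At Pigr (chr1:132722753-132728336, mm9) the peaks covered 5064 and 5584 bp in the ISC libraries and 4609 and 3906 bp in the enterocyte libraries. Both ISC values were above both enterocyte values, and the region was the 41st and 56th widest peak of its ISC lists. At Ceacam1 (chr7:26259149-26262711) coverage was 2952 and 3458 bp in ISC and 3354 and 3483 bp in enterocytes, with groups that overlapped in these unscaled lengths. At Abcg5 (chr17:85077991-85085096) coverage was 2531 and 2875 bp in ISC and 6618 and 7048 bp in enterocytes, a clear separation of the groups. The 3 genes thus had the mark in both adult populations, with near-equal lengths for Ceacam1 and different ones for Abcg5.

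Most adult-only regions were short and many were missed by 1 shallow library. Of the 445, 174 had a peak in all 4 adult lists and 271 in exactly 3. ISC replicate 1 was the library without a peak in 178 of these 271 regions, enterocyte replicate 1 in 69, ISC replicate 2 in 17 and enterocyte replicate 2 in 7, so the shallower library of each group accounted for most; the part of depth in this was not tested. The 178 regions without a peak in ISC replicate 1 had a median of 408 bp in ISC replicate 2, against 845.5 bp there for the 174 regions called in all 4.

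**Figure D1:**
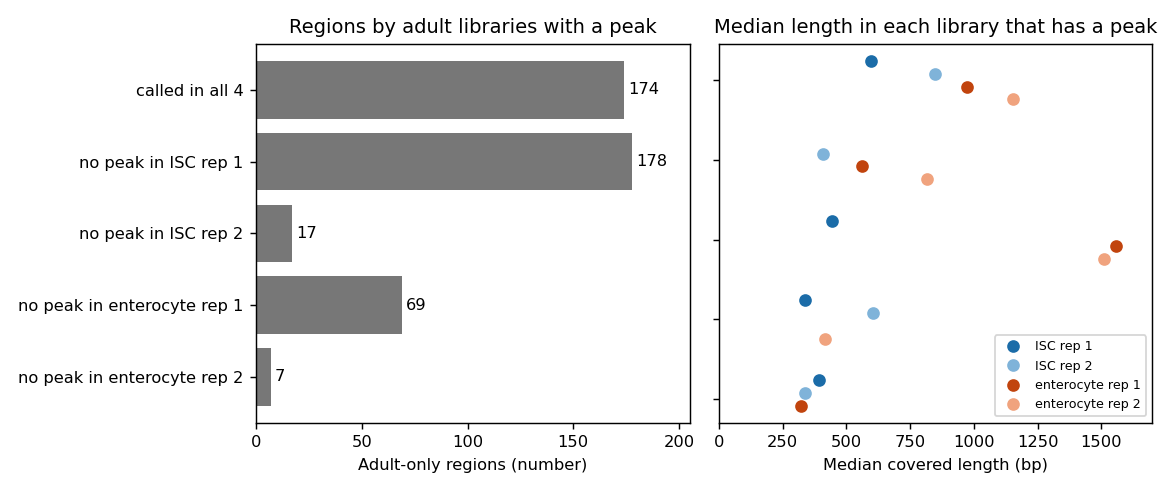
Left, number of adult-only regions by the adult libraries that held a peak (x axis, number of regions). Right, median covered length in bp in each library that held a peak, for the same 5 classes; the 174 regions called in all 4 libraries run from 594.5 bp in ISC replicate 1 to 1152.5 bp in enterocyte replicate 2.

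The mean covered length over the 4 adult libraries had a median of 575.25 bp and ran from 150 bp, at chr7:73806504-73806803, to 4898 bp. It was under 500 bp in 190 regions, between 500 and 2000 bp in 220 and over 2000 bp in 35. Regions just inside the rule, with 3 adult libraries, had a median of 435.75 bp. Just outside it, 724 autosomal regions with a peak in 2 adult and no embryonic libraries had a median of 257.375 bp, where libraries without a peak count as 0.

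On the embryonic side of the rule, 139 regions had at least 3 adult peaks and a peak in exactly 1 embryonic library. That library was E14.5 replicate 2, the longest list, in 111 of them, E14.5 replicate 1 in 26, E12.5 replicate 2 in 2 and E12.5 replicate 1 in 0. The embryonic peak had a median of 300 bp. The widest of these regions, chr9:59786095-59789263, was covered over 2445 and 3043 bp in ISC, 2362 and 2876 bp in enterocytes and 238 bp in E14.5 replicate 2. Such regions differ from members by a single short embryonic peak.

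Within their own lists, adult-only regions were mostly narrow and weak peaks, with a minority among the widest. By the width of the widest peak of the region, the median percentile (100 for the widest peak of the list) was 16.3 in ISC replicate 1, 20.7 in ISC replicate 2, 25 in enterocyte replicate 1 and 38.0 in enterocyte replicate 2. By the −log10 q of the authors' caller it was 11.7, 19.2, 20.2 and 35.5 in the same order. Regions called in all 8 libraries, by comparison, had median width percentiles between 56.3 and 69.1 in these lists.

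The upper tail differed between the lists of the 2 cell types. In the enterocyte lists 44 of 376 and 61 of 438 called members were among the widest 10% of all peaks (11.7% and 13.9%), while in the ISC lists 9 of 267 and 13 of 428 were (3.37% and 3.04%). The split was not particular to members. Regions with at least 3 adult peaks and exactly 1 embryonic peak had 9.09% and 11.6% in enterocytes and 1.06% and 2.99% in ISC. Constant regions, called in all 8 libraries, had 10.7% and 15.3% in enterocytes and 13.7% and 15.7% in ISC. By −log10 q, 9 members reached the top 10% in enterocyte replicate 1 and 0 did in the other 3 lists. By fold enrichment, 27 of 376 were in the top 10% of enterocyte replicate 1. The 20 widest members had a median −log10 q percentile of 20.6 and 27.9 in the ISC lists and 73.8 and 54.2 in the enterocyte lists.

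**Figure D2:**
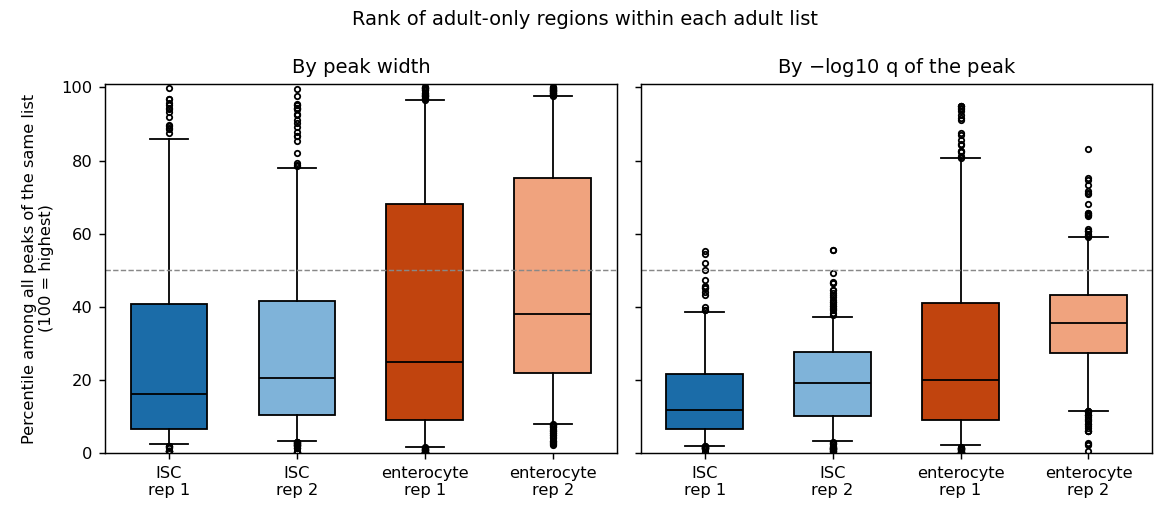
Percentile of adult-only regions among all peaks of the same list (y axis, 100 for the highest), by peak width (left) and by −log10 q (right), in the 4 adult libraries. Boxes span the quartiles with the median as a line, whiskers the 5th to 95th percentile and circles the regions beyond; the dashed line is the middle of the list, and all 8 medians lie below it.

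Between the adult cell types, which the rule did not compare, most adult-only regions were longer in enterocytes than in ISC. Lengths were scaled per library and compared as log2(bp + 200), so that log2 differences understate the change of short regions. The median difference, enterocyte minus ISC, was 0.75 over the 445 members and 0.00 over the 17679 regions tested. The difference was above 0 in 326 members (73.3%) against 40.1% of all regions tested. The regions tested include regions without an adult peak, whose difference is 0. The 12436 regions called in 3 or 4 adult libraries had a median of -0.02 with 47.3% above 0. A peak missing in ISC replicate 1 pushes the difference of a member up. The 174 members called in all 4 libraries had a median of 0.42 with 131 above 0 (75.3%). The 10387 regions of the series called in all 4 adult libraries had a median of 0.01 with 52.4% above 0.

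Counted by library, both enterocyte libraries were longer than both ISC libraries, after scaling, in 230 of the 445 (51.7%) and shorter in 59 (13.3%). Of all regions tested, 20.4% were longer and 21% shorter, but these include regions without an adult peak, which can be neither. Among the 174 called in all 4 adult libraries they were longer in 97 (55.7%) and shorter in 21 (12.1%), against 28% and 22.3% of all regions called in those 4. In unscaled lengths the enterocyte mean was a median of 1.37 times the ISC mean. The ratio was over 2 in 48 of the 174 and under 0.5 in 6, and it ran from 0.155 to 15.2. The longer coverage in enterocytes was thus frequent and not general.

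It was more frequent in wide regions. The enterocyte mean was above the ISC mean in 31 of the 35 regions over 2000 bp, in 169 of the 220 between 500 and 2000 bp (76.8%) and in 121 of the 190 under 500 bp (63.7%). Only 1 and 3 members were covered over more than 3000 bp in the ISC libraries, against 29 and 42 in the enterocyte libraries. Of the 8651 constant regions, 371 and 605 were in ISC and 482 and 689 in enterocytes. These counts are on unscaled lengths, and the split by mean width was not made over all regions tested. Width here was the mean over the same libraries that are compared.

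**Figure D3:**
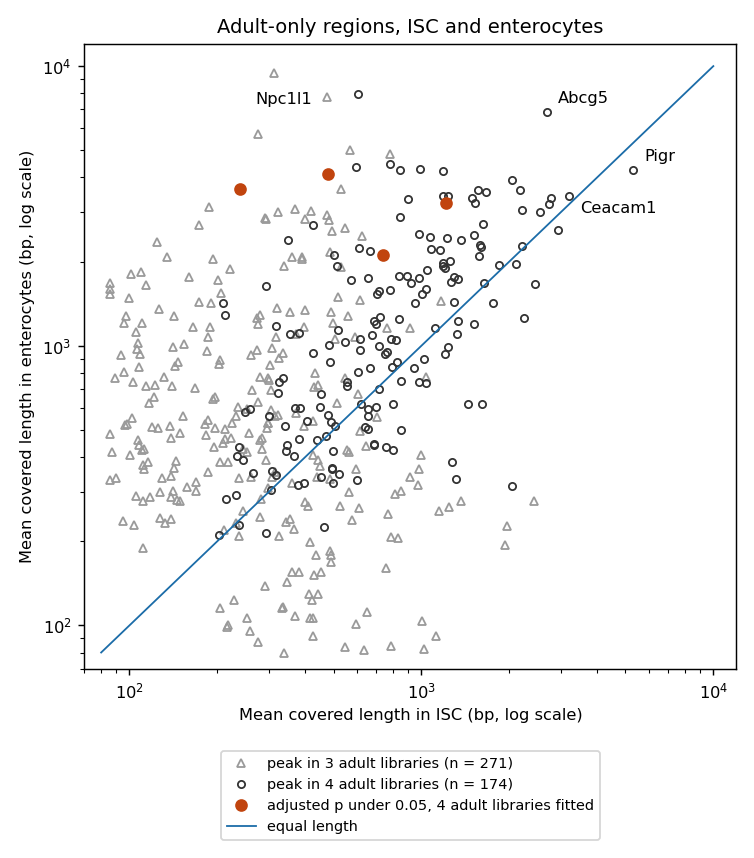
Mean covered length in ISC (x axis) against enterocytes (y axis), in bp on log scales, each the mean of 2 libraries with a missing peak counted as 0 bp, for 445 adult-only regions; the line marks equal length. Most points lie above the line; the filled points are the 4 regions with a limma adjusted p under 0.05 when the 4 adult libraries were fitted alone.

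In the limma fit of all 8 libraries, 57 members (12.8%) were longer in enterocytes and 8 (1.8%) were shorter at an adjusted p of 0.05, against 4.35% longer and 3.17% shorter over all regions tested and 3.06% and 1.5% of those called in 3 or 4 adult libraries. An ISC library without a peak was part of 31 of the 57. Among members called in all 4 adult libraries 26 of 174 were longer (14.9%) and 3 shorter (1.72%), against 3.28% and 1.43% of all regions called in those 4. The rule makes these p-values too small. All 4 embryonic libraries were at 0 bp in every member, so the embryonic groups added residual degrees of freedom with no spread. Fitted on the 4 adult libraries alone, limma called 4 members longer (0.899%) and 0 shorter, against 0.717% and 0.104% of the 14370 regions tested, so that the share of members called was near the background. At an unadjusted p under 0.05, 163 members were longer and 34 shorter in the fit of 8 libraries, and 127 in either direction in the fit of the adult libraries. No such count was made over all regions tested, so whether these numbers exceed the background cannot be said.

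Those 4 regions, chosen after their values were seen, had a peak in every adult library. At chr5:87961125-87965490 coverage was 174 and 304 bp in ISC and 3081 and 4174 bp in enterocytes, a log2 difference of 3.14 (limma, adjusted p = 0.042 with the adult libraries alone). At chr9:65266746-65270902 it was 569 and 389 bp against 4157 and 4046 bp (2.68, adjusted p = 0.049). At chr7:129362752-129366199 it was 1054 and 1380 bp against 3048 and 3448 bp (1.30, adjusted p = 0.046). The smallest of them, chr3:88258198-88260410, had 645 and 829 bp against 2009 and 2213 bp (1.32, adjusted p = 0.049). In each, both enterocyte libraries lay above both ISC libraries by more than either pair differed.

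The 20 widest regions were picked by their mean over the same 4 adult libraries, so a region long in enterocytes alone can be among them, and their direction is a description. In 5 of the 20, 1 ISC library had no peak. The enterocyte mean was higher in 18 of the 20, with both enterocyte libraries above both ISC libraries after scaling in 18. The latter held for 20.4% of all regions tested and 28% of those called in all 4 adult libraries. All 20 were among the widest 10% of peaks in enterocyte replicate 2 and 18 were in replicate 1, but 8 and 7 were in the ISC lists. In the fit of 8 libraries 7 of the 20 were longer in enterocytes and 0 shorter, against 4.35% and 3.17% of all regions tested. In the adult libraries alone 0 passed (limma, lowest adjusted p = 0.0549). Where 2 limma adjusted p-values stand together below, the first is from the 8 libraries and the second from the 4 adult ones.

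The widest region had little coverage in ISC. At chr12:112654550-112664518 coverage was 0 and 625 bp in ISC and 9374 and 9593 bp in enterocytes (limma, adjusted p = 0.0107 with 8 libraries and 0.0893 with the adult libraries). It was the 2nd and 5th widest peak of the enterocyte lists, and its ISC peak, with a −log10 q of 1.26, was among the weakest of its list. An embryonic peak lay 2.445 kb away. The size of its log2 difference depends on the pseudocount because 1 ISC library was at 0 bp.

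Npc1l1, the transporter that takes up cholesterol from the gut lumen, showed the same kind of pattern. Its region, chr11:6123145-6131777, was covered over 0 and 949 bp in ISC and 6861 and 8633 bp in enterocytes (adjusted p = 0.0318 with 8 libraries by limma, 0.137 with the adult libraries). The sterol exporter region at Abcg5 had a log2 difference of 1.32 ± 0.13 (SE; adjusted p = 0.0032 and 0.0549). Both sterol transporter regions were thus covered further in enterocytes, with a wide ISC domain at Abcg5 and a short or missing one at Npc1l1. Beside the fit of the adult libraries, the call at Abcg5 was lost without enterocyte replicate 1 (adjusted p = 0.0517 by limma) and in lists of equal number (0.183, at a log2 difference of 3.21). That at Npc1l1 was lost with a pseudocount of 50 bp (0.105) and when any embryonic or enterocyte library was left out, and was kept when either ISC library was.

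Further wide regions were covered mainly in enterocytes. At chr17:66938458-66947337 coverage was 993 and 217 bp in ISC and 8880 and 6958 bp in enterocytes (limma, adjusted p = 0.0198 with 8 libraries, 0.111 with the adult ones). At chr13:73832402-73838345 it was 0 and 550 bp against 5868 and 5612 bp (0.0148 and 0.0988). At chr17:74295203-74300437 it was 1032 and 525 bp against 3710 and 5235 bp (0.0174 and 0.0934). These regions lay 64.482, 31.442 and 140.421 kb from the nearest region with an embryonic peak. Of the 20 widest, 6 lay within 10 kb of one, among them Abcg5 at 2.367 kb, and 3 lay over 100 kb away.

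A smaller length difference passed in the fit of 8 libraries at chr2:119052423-119056154, with 1683 and 1641 bp in ISC and 3732 and 3356 bp in enterocytes (adjusted p = 0.0463 by limma, 0.106 with the adult libraries). This call was also lost with replicate number as a block (0.0656), a pseudocount of 50 bp (0.162), quantile normalization (0.0997), regions called in at least 4 libraries (0.0565) and peaks of −log10 q of at least 10 (0.998). It was kept with a library left out only when that was E12.5 replicate 2 or enterocyte replicate 2. A region outside the 20 widest, chr18:60816100-60819954, had 0 and 375 bp against 2395 and 3855 bp (0.0155 and 0.102). Both enterocyte libraries exceeded both ISC libraries at either locus. Without enterocyte replicate 1 the named calls of regions longer in enterocytes were all lost. A call that is kept with a library left out is no sign of stability, because embryonic libraries at members are still at 0 bp in that fit.

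Other wide regions had separated groups without passing the threshold. At chr5:140293953-140299997 coverage was 0 and 1566 bp in ISC and 3680 and 6045 bp in enterocytes (limma, adjusted p = 0.145 and 0.264). At chr6:129045594-129050998 it was 1135 and 0 bp against 4679 and 5369 bp (0.101 and 0.223), and at chr9:95711076-95715942 it was 277 and 1702 bp against 3989 and 4618 bp (0.0891 and 0.201). In these 3 regions the ISC libraries differed widely from each other. At chr17:34651172-34656252, in the stretch of chromosome 17 that holds the major histocompatibility complex, coverage was 709 and 1659 bp in ISC and 5081 and 3324 bp in enterocytes (0.0575 and 0.159).

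Several wide regions had overlapping unscaled lengths in the 2 cell types. At chr11:66769945-66773960 coverage was 2473 and 3106 bp in ISC and 2747 and 3995 bp in enterocytes. At chr5:137443042-137446436 it was 2378 and 2719 bp against 2692 and 3321 bp, with the highest −log10 q of all members in 3 lists (10.3, 24.6 and 47.1 in ISC replicates 1 and 2 and enterocyte replicate 2). At chr6:55286090-55289686 it was 2956 and 2941 bp against 1597 and 3597 bp. After scaling only the last still overlapped, and Ceacam1 and the other two were longer in both enterocyte libraries. Their limma adjusted p was 0.489, 0.486 and 0.828 with 8 libraries and 0.445, 0.315 and 0.741 with the adult ones. At Pigr the log2 difference was -0.27 ± 0.17 (SE; limma, adjusted p = 0.486 and 0.527), and at Ceacam1 it was 0.13 ± 0.15 (adjusted p = 0.752 and 0.683).

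In the remaining wide regions enterocyte coverage was moderately longer. At chr2:163362693-163367561 it was 1909 and 2172 bp in ISC and 2943 and 4869 bp in enterocytes, at a log2 difference of 0.87 ± 0.22 (SE; limma, adjusted p = 0.0883 and 0.149). At chr11:42969107-42972776 it was 2239 and 2103 bp against 3531 and 3670 bp, a difference of 0.72 ± 0.19 (adjusted p = 0.0991 and 0.143). At chr3:88396148-88399230 (2269 and 2162 bp against 3015 and 3083 bp) and chr2:145685723-145689152 (2684 and 2772 bp against 3138 and 3292 bp) the differences were 0.47 ± 0.19 and 0.26 ± 0.17. Their limma adjusted p was 0.286 and 0.488 with 8 libraries and 0.253 and 0.427 with the adult ones. Neither group overlapped the other in these 4 regions, and none passed the threshold.

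**Figure D4:**
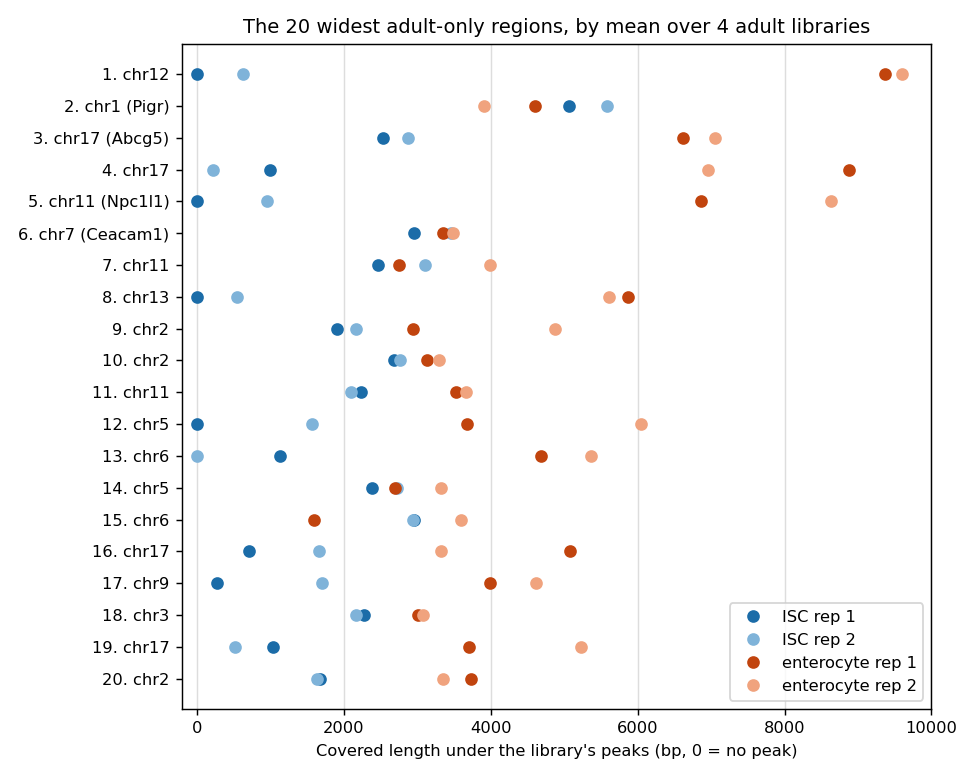
Covered length in bp (x axis, unscaled, 0 for no peak) of the 20 adult-only regions with the largest mean over the adult libraries, in order of that mean and named by chromosome, with each point 1 library. Enterocyte points reach 9593 bp at the chr12 region, ISC points reach 5584 bp at Pigr, and Pigr is the widest region in which both ISC points lie above both enterocyte points.

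The 8 members called longer in ISC in the fit of 8 libraries did not include Pigr, and 5 of them are given here. At chr1:189485998-189488442 coverage was 1635 and 2445 bp in ISC and 333 and 298 bp in enterocytes, a log2 difference of -2.06 ± 0.22 (SE; limma, adjusted p = 0.0051 with 8 libraries and 0.0549 with the adult ones). The call was lost in lists of equal number (adjusted p = 0.67 by limma, at a log2 difference of -1.01). With a single library left out the log2 difference ran from -2.22 to -1.90. Those fits keep embryonic libraries at 0 bp, so they cannot show whether the call is stable. Its peaks in enterocytes were short but present in both libraries.

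In the other 4 named regions of this direction enterocyte replicate 1 had no peak. At chr4:120189282-120191505 coverage was 1638 and 2224 bp in ISC and 0 and 389 bp in enterocytes (limma, adjusted p = 0.0339). At chr13:4058729-4059946 it was 1121 and 1132 bp against 0 and 184 bp (0.0117). At chr10:30374632-30375768 it was 1066 and 981 bp against 0 and 165 bp (0.0115), and at chr16:32736270-32737373 it was 902 and 1104 bp against 0 and 208 bp (0.0192). These p-values are from the fit of 8 libraries, and with the adult libraries alone they were between 0.119 and 0.142. The peaks of enterocyte replicate 2 there had −log10 q values of 2.43, 1.84, 3.9 and 1.45 in the order given. Each of the 4 calls was lost without either E14.5 library and without ISC replicate 1.

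Most adult-only regions did not adjoin an embryonic peak. The nearest region with a peak in any embryonic library was a median of 17.578 kb away. It lay within 2 kb for 33 of the 445 (7.42%), within 10 kb for 147 (33.0%) and over 100 kb away for 36 (8.09%). For the 35 regions over 2000 bp the median distance was 31.442 kb, against 14.9 kb between 500 and 2000 bp and 19.2 kb under 500 bp, and 3 of the 35 had an embryonic peak within 2 kb. Of the constant regions, called in all 8 libraries, 4.39% had another region with an embryonic peak within 2 kb.

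Their spacing from the constant regions was like that of constant regions among themselves. The median distance was 37.5 kb for adult-only and 39.9 kb for constant regions. For the 364 regions called in both enterocyte libraries and no other it was 33.0 kb. The 818 regions with a peak in at least 3 embryonic and no adult libraries were a median of 155.8 kb from a constant region, and 60.5% of them lay over 100 kb away, against 22.2% of the adult-only regions. These distances are descriptions of where the regions lie and were not tested.

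**Figure D5:**
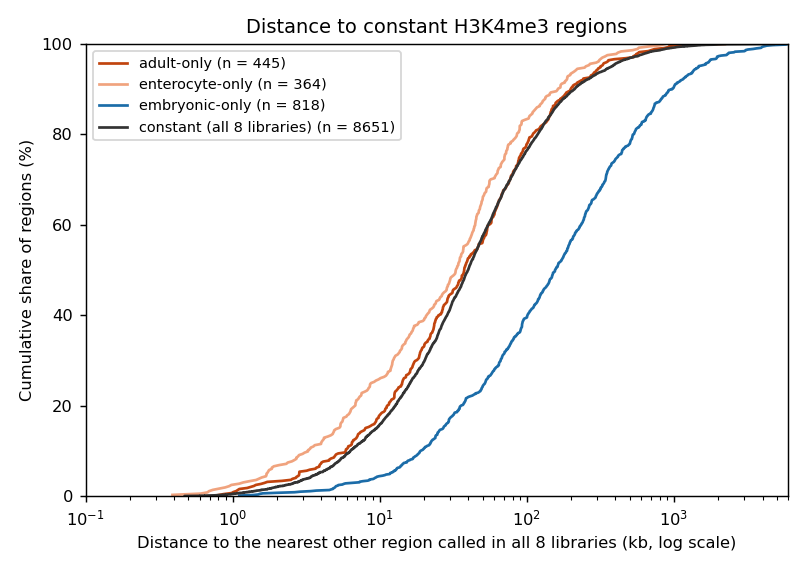
Cumulative share of regions (y axis, %) by distance to the nearest other region called in all 8 libraries (x axis, kb, log scale). The curve of the 445 adult-only regions runs beside that of the 8651 constant regions, and that of the 818 embryonic-only regions lies to its right.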

How the data were processed

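H3K4me3 ChIP was sequenced in 8 libraries; the 4 input samples enter only through the authors' peak calls. Per the file headers, the authors called broad peaks per library with MACS 2.0.10.20130712 against the group's input (q cutoff 0.01; the broad lists reach down to −log10 q of 1.01). Bowtie 1.1.2, SAMtools 1.2 and mm9 are named in the submitters' processing notes. Each deposited peak has a length in bp, a pileup signal, −log10 p and −log10 q values and a fold enrichment (ratio over input); these are the authors' and served only to rank or filter peaks within a list. The lists hold no read counts, so intervals for single values cannot be given.

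Covered bp per merged region and library were divided by factors from 0.72 to 1.28 that equalize medians over regions called in all 8 libraries. Regions called in at least 2 libraries of any chromosome were tested with limma 3.58.1 (R 4.3.3, trended prior, two-sided, Benjamini-Hochberg over all 17679 regions, threshold 0.05) on log2(bp + 200), with the 4 groups in 1 fit. The fit was also run on simulated lengths with the same spread in every library. These lacked the 0 bp of all 4 embryonic libraries at members, so the run does not bear on the p-values there. The labels describe the 2 libraries of a group as biological duplicates. Members and lists were chosen with earlier results of these data known. Named regions are the 20 widest, up to 5 per direction with the largest called change and groups that do not overlap, the 3 marker regions and the narrowest. Planned gene overlaps, gene lists and sequence content of peaks were not run, since no mm9 genome or annotation was used here; 4 loci and Olfm4 are named from known positions.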

Additional observations from a re-analysis of the deposited data

How the results depend on the processing

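The set of members depends on weak peaks and on each library. The 445 regions became 174 with a peak required in all 4 adult libraries, 274 with at least 500 bp covered per library and 67 with peaks of −log10 q of at least 10. Of these 67, 12 overlapped the 445 (17.9% of the 67 and 2.7% of the 445). Lists of equal number gave 532, of which 76 overlapped the 445 (14.3% of the 532 and 17.1% of the 445). With 1 library left out, and 3 adult peaks still required, the number ran from 181 (without enterocyte replicate 2) to 556 (without E14.5 replicate 2); it was 191 without ISC replicate 2 and 243 without enterocyte replicate 1.

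Members called longer in enterocytes, 57 in the limma fit of 8 libraries, were 23 with a pseudocount of 50 bp, 96 with 1000 bp, 115 with quantile normalization, 23 among regions called in at least 4 libraries (174 members tested), 0 of 67 with peaks of −log10 q of at least 10 (14 at an unadjusted p under 0.05, either direction), 4 with only the 4 adult libraries and 26 among members called in all 4. The 8 shorter members were 2, 14, 12, 2, 0, 0 and 3 in the same order. With a library left out they ran from 13 (without enterocyte replicate 1) to 191 longer (without ISC replicate 2) and from 1 (without either E14.5 library) to 65 shorter (without enterocyte replicate 2, where 50 were longer). Longer counts were also lower without E12.5 replicate 1 (37), E14.5 replicate 1 (20) and E14.5 replicate 2 (21), and shorter ones without ISC replicate 2 (5). A group left with 1 library is assumed to vary like the others. Embryonic libraries at members are still at 0 bp in these fits. The calls over all regions tested also changed with the library left out, so member counts alone do not show a change particular to members. Of all 17679 regions, 769 were longer in the fit of 8 libraries. With a pseudocount of 50 bp, 1000 bp and quantile normalization 720, 891 and 810 were. Shorter ones were 561, 556, 549 and 697 in that order. Among regions called in at least 4 libraries 307 of 13911 were longer and 348 shorter. With peaks of −log10 q of at least 10, 146 and 23 of 12126 were. With replicate number as a block 48 members were longer and 6 shorter, against 701 and 494 of all regions tested. The numbers are not stated to mark pairs, and deviations of same-numbered libraries correlated at 0.02 to 0.31 over the 6 pairs of groups. The highest, 0.31, was that of ISC and enterocytes, the groups compared here.

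The median log2 difference of members, 0.75, was above 0 in each setting run on the 445 or a part of them: 1.19 with a pseudocount of 50 bp, 0.29 with 1000 bp, 0.42 among regions called in at least 4 libraries and among members called in all 4, and 0.27 to 1.13 with a library left out. Lists of equal number (0.39) and peaks of −log10 q of at least 10 (1.72) gave largely other regions. The median width percentile for members called in all 4 libraries was 21.8 and 34.5 in ISC and 39.3 and 54.2 in enterocytes. By −log10 q, the median percentile in ISC replicate 1 was 11.7 over all members called there. The nearest region called in all 4 embryonic libraries was a median of 34.608 kb away. The cause of these differences between settings was not tested. Of the 13 named calls, 8 were lost without enterocyte replicate 1.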

Other observations

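Adult-only regions lay on every autosome, with 12 to 34 regions each. Set against regions called in all 8 libraries, their number was lowest on chromosome 7 (33.9 per 1000 constant regions) and highest on chromosome 18 (74.7). Of the 445, 72 lay within 100 kb of another member, in 34 groups, of which 30 were pairs and 4 held 3 regions.

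One group of 3, spread over 93.1 kb at chr17:34422807-34515881, lies in the major histocompatibility complex, whose genes present antigens. Summed over the 3 regions, coverage was 2470 and 2281 bp in ISC and 6337 and 4488 bp in enterocytes, with both enterocyte sums above both ISC sums. Between 34 and 36 Mb of chromosome 17 there were 6 adult-only regions, all with a higher unscaled mean in enterocytes. Of all members, 73.3% had a log2 difference above 0, a measure on scaled lengths. The tally of the 6 depends on the edge of the window. Beyond 36 Mb, 2 members at chr17:36298044-36343314 summed to 1156 and 1768 bp in ISC against 0 and 2208 bp in enterocytes, which overlapped. At 1 of the 6, chr17:34422807-34424889, the difference passed in the limma fit of 8 libraries (adjusted p = 0.0247, where 12.8% of all members were called longer) and not in that of the adult libraries (0.0988). A second group, at chr18:60816100-60965704, summed to 1609 and 2202 bp in ISC and 5893 and 7110 bp in enterocytes. In the group at chr7:4551965-4676957 the sums were 2693 and 3689 bp against 7222 and 6438 bp. The fourth, chr12:74630243-74652447, differed from these with 457 and 1851 bp against 1460 and 1347 bp, groups that overlapped. These groups were chosen after their values were seen and were not tested as groups.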
